A study of Homo sapiens with 6 samples.

Results

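GATA2, FOXA1, HOXB13, SPDEF, EHF and ELF3 encode transcription factors of luminal prostate epithelium, and they were examined here in LNCaP cells after exposure to gedunin. These 6 genes of 12165 on the array were followed on every probe set annotated to a member alone, which gave 13 of 22215 probe sets. SPDEF had 5 of them, GATA2 had 3, ELF3 had 2, and FOXA1, HOXB13 and EHF had 1 each. LNCaP is an established, androgen-responsive human prostate cancer cell line, and gedunin is a limonoid natural product of the neem tree and its relatives. Cells in medium with serum received 20 µM gedunin (3 arrays) or DMSO, the solvent (3 arrays), for 6 h, and their total RNA was measured on Affymetrix expression arrays. Arrays are labelled biological replicates 1 to 3 within each treatment, with nothing on how cultures were kept apart, so a p-value reflects array-to-array spread, which may in part be technical. All cells are of 1 line, and what was read is the RNA of the whole culture. Fewer cells that express a gene and less of its RNA in every cell therefore cannot be told apart. Gedunin was compared with DMSO 1 and 2, and the array labelled DMSO 3, which lacked prostate transcripts, is shown apart.

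FOXA1 is a forkhead pioneer factor that opens chromatin at prostate enhancers, GATA2 is a zinc finger factor that binds many of the same enhancers, and HOXB13 is a homeodomain factor that marks the prostate lineage. All of them help androgen signalling to select its sites. SPDEF, EHF and ELF3 belong to the epithelial branch of the ETS family, whose DNA-binding domain reads a GGAA core, and they are linked to the differentiated secretory state of glandular epithelium.

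In GRCh38.p14, GATA2 spans chr3:128479422-128493201, FOXA1 chr14:37589552-37595249, HOXB13 chr17:48724763-48728750, SPDEF chr6:34537802-34556329, EHF chr11:34621093-34663288 and ELF3 chr1:202010587-202017183. RefSeq promoter sequences, from 250 bases before to 50 bases after an annotated start, were given for 5 of the 6 genes, with 2 starts each for GATA2 and EHF and no entry for HOXB13. Printed here, 5′ to 3′ on the strand of the gene, are the promoters of the members that fell, followed by those of EHF and ELF3, which did not pass the test; of the starts of GATA2 and EHF, the one with a match is shown. Capitals mark exact matches, on either strand, to 1 of 7 motifs. Of these, the letters AGATAA are bound by zinc finger factors of the class of the first member, TGTTTAC by forkhead factors such as FOXA1, GGAAGT by ETS factors, TTTTATNG by HOXB13, GAANNTTC by heat shock factors, TATAAA by the basal machinery and GGGCGG by Sp proteins.
GATA2, chr3:128493152-128493451, minus strand: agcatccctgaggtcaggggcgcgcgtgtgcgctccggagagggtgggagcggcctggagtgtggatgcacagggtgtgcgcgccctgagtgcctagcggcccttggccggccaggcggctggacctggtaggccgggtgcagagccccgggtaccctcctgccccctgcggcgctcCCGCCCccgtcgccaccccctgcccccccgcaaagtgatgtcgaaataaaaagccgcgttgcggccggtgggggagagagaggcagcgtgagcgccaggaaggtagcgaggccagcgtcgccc
FOXA1, chr14:37595200-37595499, minus strand: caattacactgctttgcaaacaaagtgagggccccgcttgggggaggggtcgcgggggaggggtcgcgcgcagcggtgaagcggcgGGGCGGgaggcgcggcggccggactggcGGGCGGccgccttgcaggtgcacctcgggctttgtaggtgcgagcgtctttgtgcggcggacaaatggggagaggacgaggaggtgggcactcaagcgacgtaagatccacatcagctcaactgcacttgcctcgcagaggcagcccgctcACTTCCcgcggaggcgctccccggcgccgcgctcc
SPDEF, chr6:34556280-34556579, minus strand: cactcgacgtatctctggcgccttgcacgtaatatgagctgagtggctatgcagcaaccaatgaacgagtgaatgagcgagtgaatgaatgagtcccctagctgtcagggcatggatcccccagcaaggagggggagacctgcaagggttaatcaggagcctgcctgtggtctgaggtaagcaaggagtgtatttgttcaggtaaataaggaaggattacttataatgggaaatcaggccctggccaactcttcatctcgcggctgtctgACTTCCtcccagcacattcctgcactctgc
EHF, chr11:34632316-34632615, plus strand: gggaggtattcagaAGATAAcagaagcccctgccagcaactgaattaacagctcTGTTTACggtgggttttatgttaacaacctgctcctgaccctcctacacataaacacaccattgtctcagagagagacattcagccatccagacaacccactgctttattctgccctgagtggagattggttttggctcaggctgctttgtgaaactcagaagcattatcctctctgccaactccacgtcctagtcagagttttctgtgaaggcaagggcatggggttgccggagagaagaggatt
ELF3, chr1:202010337-202010636, plus strand: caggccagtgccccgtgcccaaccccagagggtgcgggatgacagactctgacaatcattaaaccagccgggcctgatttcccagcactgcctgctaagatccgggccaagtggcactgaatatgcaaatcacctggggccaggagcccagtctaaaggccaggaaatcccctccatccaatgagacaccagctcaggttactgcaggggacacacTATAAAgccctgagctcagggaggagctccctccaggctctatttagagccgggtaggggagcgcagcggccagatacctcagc

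The promoters differed in composition, with 72.3% G or C in GATA2 and 69.3% in FOXA1 against 52.0% in SPDEF, 48.3% in EHF and 59.0% in ELF3. The median of all 35116 RefSeq promoters was 58.7%. FOXA1 and SPDEF, which both fell, each held 1 match to the ETS letters just after the start, at positions 16 and 21 counted from the start as 1, on the opposite strand. Such a match occurred in 22.8% of all promoters. FOXA1 also held GC boxes at -164 and -136, and GATA2 held 1 at -73, letters found in 45.0% of promoters. The EHF promoter held a GATA match at -236 and a FOXA match at -196, found in 10.3% and 3.42% of promoters, and ELF3 held a TATA box at -34 (11.5%). The HOXB13 letters (3.40% of promoters) and the heat shock element (6.77%) were in 0 of the 7 member promoters. The other starts of GATA2 and EHF held no match. The matches are descriptions of these windows and are not measured sites.

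The array labelled DMSO 3 correlated with the other 5 at a Spearman rho of 0.812 to 0.819 (taken over probe sets, so with no p-value), against 0.965 to 0.980 among those 5. The luminal markers KLK3, KLK2, FOLH1, KRT8, KRT18 and ACP3 summed to an intensity of 161 on it and to between 13235 and 14209 on the others, so the other 5 arrays carried the prostate signal their labels name. Of 6 leukocyte markers, PTPRC, CD74, HLA-DRA, CD53 and CORO1A read between 17.3 and 29.6 on the 5 arrays, close to the lower limit of the scale, and between 435 and 4294 on the array labelled DMSO 3. The remaining one, LCP1, read 564 to 748 on the 5. Basal keratins KRT5, KRT14 and KRT15 read at most 20.5 on the 5 arrays. Of 4 stromal markers, COL1A1 rose with gedunin (60.1 and 59.8 to 111, 97.4 and 94.8; 0.75 ± 0.10, adjusted p = 6.09e-04), VIM fell (116 and 127 to 82.1, 86.6 and 86.0; -0.52 ± 0.09, adjusted p = 0.00320), and COL1A2 and DCN read 18.0 to 25.2 on the 5 arrays. The stromal sum was 228 to 232 with gedunin and 219 and 234 on DMSO 1 and 2. Of 4 neuroendocrine markers 0 were called. The part of these markers in the results was not tested. The median probe set read 31.1 to 31.8 on these arrays, and RMA compresses folds near or below that level. Intensities of different probe sets are not compared with each other.

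Of the 6 genes, 4 fell with gedunin and 0 rose at an adjusted p of 0.05, counting each gene by its probe set with the highest mean. GATA2 fell most, by more than 2-fold, followed by SPDEF, FOXA1 and HOXB13. EHF and ELF3 did not pass the test. Over all genes, 9.35% were called lower, 8.22% higher and 17.6% in either direction. These shares include genes with dim probe sets, while the 6 member sets used here read above the array median on the 5 arrays. The median log2 fold change of the 6 genes was -0.48, and that of all genes was -0.017.

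**Figure D1:**
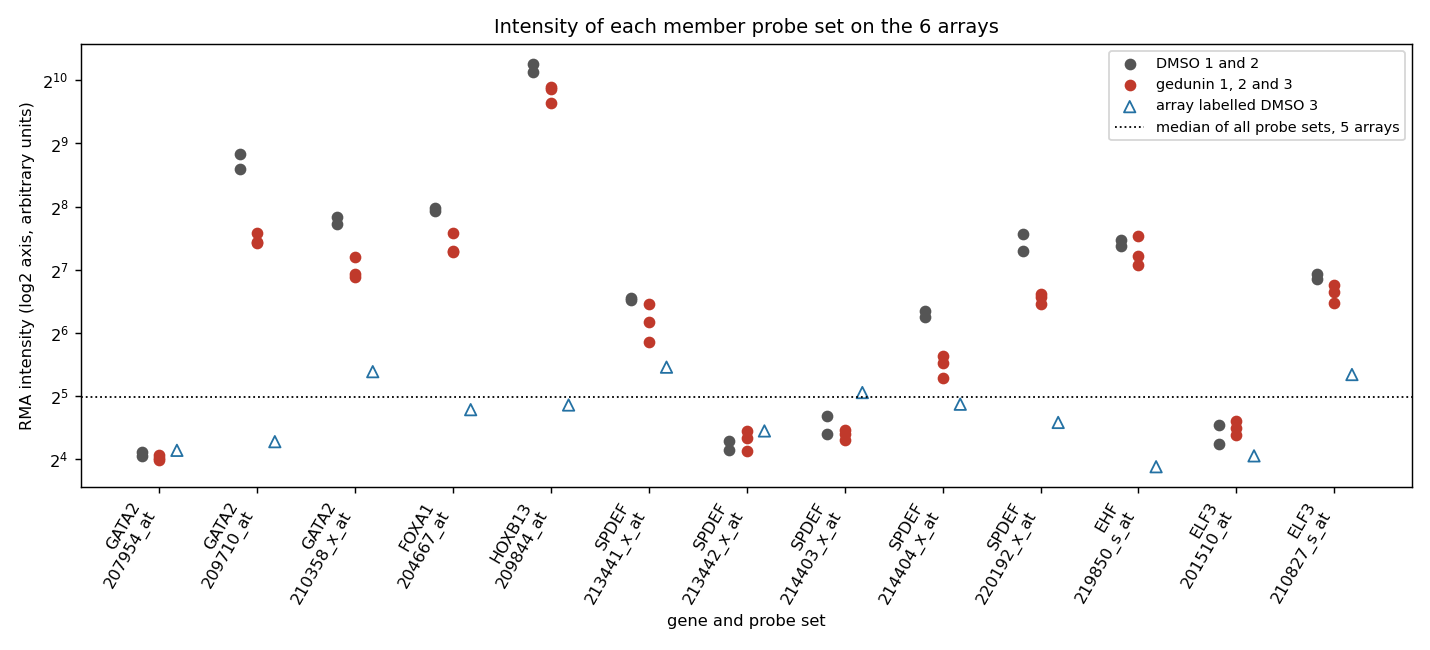
RMA intensity (log2 axis) of the 13 member probe sets, with grey points for DMSO 1 and 2, red points for the 3 gedunin arrays and open triangles for the array labelled DMSO 3; the dotted line is the median probe set. All 3 gedunin points lie below both DMSO points for 8 probe sets, and 4 probe sets lie below the median line on average.

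Over the 13 probe sets, 6 were called lower and 0 higher, against 7.91% lower and 7.37% higher of all probe sets (15.3% in either direction). All 3 gedunin arrays lay below both DMSO arrays for 8 of the 13, a pattern shown by 23.5% of all probe sets, and above both for 0. The share of all probe sets that lay above both was not computed. The 6 called probe sets belong to GATA2 (2), SPDEF (2), FOXA1 and HOXB13. When each array was centred on GAPDH and ACTB, 8 of the 13 were lower and 0 higher, but the split of all probe sets then moved from 1758 lower and 1638 higher to 5226 and 1041. Probe sets annotated to the same gene are not separate evidence. The 4 probe sets whose mean lay below the array median, 1 of GATA2, 2 of SPDEF and 1 of ELF3, were not called.

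GATA2, which besides its part in prostate enhancers is known as a regulator of blood stem cells, gave intensities of 388 and 456 on DMSO 1 and 2 and of 191, 174 and 171 on the gedunin arrays (probe set 209710_at). The 2 groups were well apart, with every gedunin array under 50% of either DMSO array. The mean with gedunin was 179 ± 10.6 (SD, n = 3) against 422 (n = 2), a log2 fold change of -1.24 ± 0.10 (limma's moderated standard error; adjusted p = 3.18e-05). The 95% interval ran from -1.47 to -1.01. GATA2 was among the 72 genes, 0.592% of all, called at least 2-fold lower.

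The second GATA2 probe set, 210358_x_at, read 212 and 227 on the DMSO arrays and 147, 119 and 123 with gedunin. It fell by 0.77 ± 0.11 on the log2 scale (adjusted p = 0.00111), less than 209710_at. By the suffix _x_at, some of its probes may also match other transcripts. The third, 207954_at, read 15.8 to 17.3 on all 5 arrays, near the lowest values of the table, and its log2 fold change was -0.063 ± 0.086. When the probe sets of the gene were averaged, the near-floor set included, the GATA2 value shrank to -0.69 (adjusted p = 6.79e-04).

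FOXA1 read 244 and 251 on the DMSO arrays and 155, 157 and 191 with gedunin. No gedunin array reached a DMSO array, although gedunin 3 stood above gedunin 1 and 2. The log2 fold change was -0.57 ± 0.11 (adjusted p = 0.00575; 95% interval -0.81 to -0.33), which is 67.4% of the DMSO level. Without DMSO 2 the value was -0.55 with an adjusted p of 0.0614, past the threshold no longer.

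HOXB13 read 1116 and 1223 on the DMSO arrays and 953, 931 and 798 with gedunin. The groups did not overlap, and the gap between DMSO 1 and gedunin 1 was about as wide as the range of the gedunin arrays (894 ± 83.7, SD, n = 3). HOXB13 fell by 0.39 ± 0.10 on the log2 scale (adjusted p = 0.0319; 95% interval -0.62 to -0.16), to 76.3% of the DMSO level. This call was lost without gedunin 3 (-0.31, adjusted p = 0.0727), without DMSO 1 (-0.46, adjusted p = 0.0905) and without DMSO 2 (-0.32, adjusted p = 0.221).

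SPDEF, an ETS factor of secretory epithelial cells, read 189 and 158 on the DMSO arrays and 95.2, 98.3 and 87.6 with gedunin (220192_x_at). The gedunin arrays lay close together and well below both DMSO arrays. SPDEF fell by 0.89 ± 0.11 (adjusted p = 3.59e-04; 95% interval -1.12 to -0.65), to 54.1% of the DMSO level. A further set, 214404_x_at, read 76.4 and 81.4 against 49.6, 45.9 and 39.1 and fell by 0.82 ± 0.11 (adjusted p = 8.55e-04).

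The other SPDEF probe sets did not pass the test. On 213441_x_at the DMSO arrays read 93.6 and 91.6 and the gedunin arrays 57.9, 71.7 and 87.5, with a log2 fold change of -0.38 ± 0.15 (adjusted p = 0.133). All gedunin arrays were lower there, but they spread widely, and without gedunin 3, the highest of them, the value was -0.52 and passed (adjusted p = 0.0185). The sets 213442_x_at (17.4 to 21.7 on the 5 arrays) and 214403_x_at (19.8 to 25.7) lay below the array median, with log2 fold changes of 0.082 ± 0.11 and -0.15 ± 0.11. All 5 sets of SPDEF carry the suffix _x_at, and their mean gave -0.43 (adjusted p = 0.00539).

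EHF, an ETS factor of simple epithelia, read 166 and 177 on the DMSO arrays and 148, 184 and 135 with gedunin. The groups overlapped, as gedunin 2 exceeded both DMSO arrays. Its log2 fold change was -0.15 ± 0.13 (adjusted p = 0.519), and the 95% interval, -0.44 to 0.14, includes a fall as large as that of HOXB13. It does not show that EHF stayed the same.

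ELF3, an ETS factor that is raised in many epithelial tumours, read 122 and 115 on the DMSO arrays and 100.2, 108 and 88.7 with gedunin (210827_s_at). All gedunin arrays were lower, by a small margin. The log2 fold change was -0.26 ± 0.10, with an unadjusted p of 0.0293 and an adjusted p of 0.130, so it was not called. The other ELF3 set, 201510_at, read 18.8 to 24.3 on the 5 arrays, below the array median, and gave 0.10 ± 0.11.

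**Figure D2:**
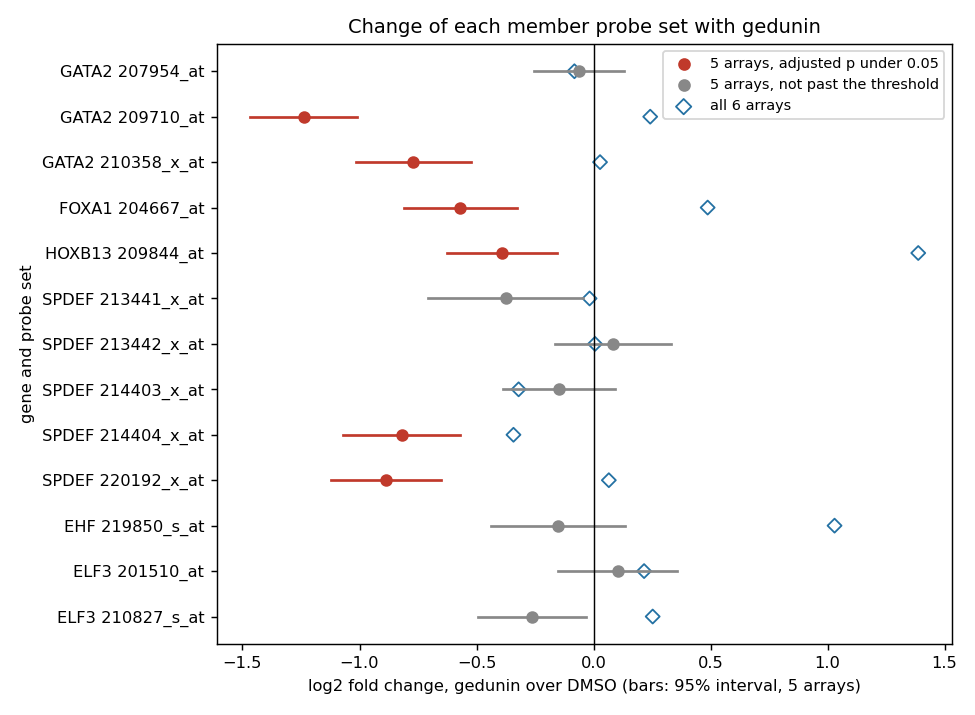
Log2 fold change (gedunin over DMSO) of each member probe set; filled points with 95% intervals are from the 5 arrays, red where the adjusted p was under 0.05, and open diamonds are the values with all 6 arrays. The 6 red points lie between -1.24 and -0.39, and the diamonds of the same probe sets lie to the right of them.

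To compare the members with each other, within each array the log2 difference between the representative probe sets of 2 members was taken and compared between groups, over all 15 pairs. For 11 pairs the gedunin and DMSO arrays did not overlap. How often this occurs among pairs of other genes was not computed. Each member also enters several pairs, so the pairs are not separate evidence. The count is therefore a description and does not show that the members differ. The log2 change of GATA2 minus that of the other gene was -0.35 for SPDEF, -0.67 for FOXA1, -0.85 for HOXB13, -0.98 for ELF3 and -1.09 for EHF. For SPDEF it was -0.73 against EHF and -0.62 against ELF3. With 3 against 2 arrays an exact two-sided permutation test cannot go below 0.1. That value was reached in 8 of the 15 pairs, with an adjusted p of 0.188. A test of this size could not pass 0.05 for any pair, so it decides nothing about the order of the 4 called falls, GATA2, SPDEF, FOXA1 and HOXB13, which is given as a description. By the representative probe sets, the 95% intervals of GATA2 (-1.47 to -1.01) and FOXA1 (-0.81 to -0.33) did not overlap. The interval of the other called GATA2 set, 210358_x_at (-1.02 to -0.53), did overlap that of FOXA1. Averaging a gene's probe sets gave the order GATA2 (-0.69), FOXA1 (-0.57), SPDEF (-0.43) and HOXB13 (-0.39). The order by representative probe sets was instead GATA2, SPDEF, FOXA1 and HOXB13. Neighbours in this second order differed by 0.35 (GATA2 and SPDEF), 0.32 (SPDEF and FOXA1, exact p = 0.3) and 0.18 (FOXA1 and HOXB13, exact p = 0.4).

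On the array labelled DMSO 3, the members were low. By the representative probe sets, HOXB13 read 29.0, FOXA1 27.5, SPDEF 23.9, GATA2 19.4 and EHF 14.7. All of these lay below the median of that array, where folds are compressed and give no order. Other sets read above that median there, GATA2 210358_x_at at 41.8 and SPDEF 213441_x_at at 43.9. The representative set of ELF3 read 40.5, also above that median and 2.92-fold below the mean of DMSO 1 and 2. With that array among the controls, all 6 values of the representative sets turned positive and 0 members were called, since the DMSO mean then fell below the gedunin mean. GATA2 had 0.24 ± 1.26 (adjusted p = 0.951), FOXA1 0.49 ± 0.90 (0.844), HOXB13 1.39 ± 1.51 (0.737), SPDEF 0.065 ± 0.81 (0.982), EHF 1.03 ± 1.01 (0.720) and ELF3 0.25 ± 0.45 (0.837). Over all genes 1.68% were called in that fit, against 17.6% without the array, and over all probe sets 1.40% against 15.3%. The falls reported here thus rest on leaving out an array that carries the label of a control.

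**Figure D3:**
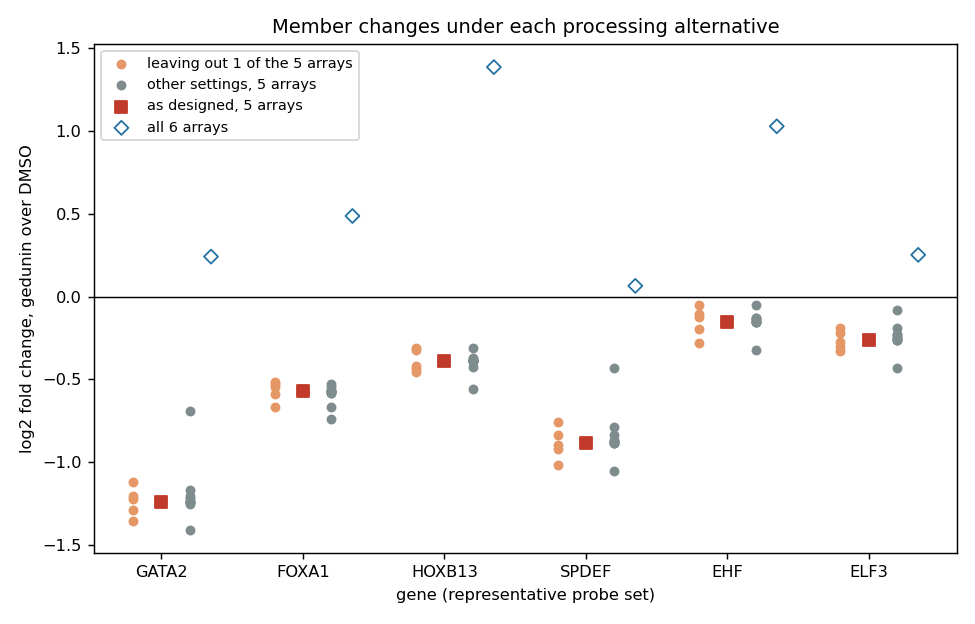
Log2 fold change (gedunin over DMSO) of the representative probe set of each member under every alternative; red squares are the values as designed, orange points leave out 1 of the 5 arrays, grey points are the other settings on 5 arrays, and open diamonds use all 6 arrays. Every value from 5 or 4 LNCaP arrays lies below 0, and every diamond lies above 0.

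Relatives and partners of the members were read from lists, with each gene counted by its probe set of highest mean. Over 8 lists, 99 genes were measured, of which 7 were called higher and 13 lower, beside 8.22% and 9.35% of all genes. A number of listed genes are not analysed here.

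Of 22 other ETS factors, 3 rose, 2 fell and 17 did not pass, with a median of -0.027. Most of the 17 read below the array median on the 5 arrays, where folds are compressed. ETV1, which is rearranged and highly expressed in LNCaP, fell by 0.58 ± 0.09 (adjusted p = 0.00172), from 185 and 179 on the DMSO arrays to 128, 124 and 116 with gedunin. ELF4, a lymphoid and epithelial ETS factor, rose by 0.77 ± 0.10 (adjusted p = 5.84e-04), from 23.4 and 26.9 to 45.3, 41.4 and 41.3. Its DMSO values lay below the array median, and the mean of its probe sets gave 0.55. ELF1 rose by 0.60 ± 0.12 (adjusted p = 0.00842), ETV5 by 0.32 ± 0.08 (adjusted p = 0.0292), and ELF2 fell by 0.38 ± 0.09 (adjusted p = 0.0207). ELK4, a serum response partner, had -0.30 ± 0.12 and was not called (adjusted p = 0.155). ETV5 read 20.1 to 25.7 on the 5 arrays, below the array median. Its call was lost without any 1 of them (adjusted p up to 0.163), when arrays were centred on GAPDH and ACTB (0.15, adjusted p = 0.267) and in the mean of its probe sets (0.095, adjusted p = 0.442). That of ELF2 was lost without gedunin 1 (-0.33), DMSO 1 (-0.40) or DMSO 2 (-0.36) and in the mean of its probe sets (-0.24, adjusted p = 0.0615), and that of ELF1 without DMSO 1 (0.47).

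Among 5 other GATA factors and FOG partners, 0 were called by limma and 0 had an unadjusted p under 0.05, with a median of 0.063. All of them read below the array median on the 5 arrays, where folds are compressed. Their values do not show that they stayed the same. GATA3, the relative of GATA2 in luminal breast cells, read 18.3 and 18.8 on the DMSO arrays and 18.8 to 26.0 with gedunin, below the array median. FOXA2, the FOXA1 paralog of neuroendocrine prostate cells, read 31.4 to 36.0 on the 5 arrays and had -0.014 ± 0.095. Of 5 FOXA paralogs and corepressors, 1 rose. TLE1, a corepressor that forkhead factors can recruit, rose by 0.68 ± 0.09 (adjusted p = 6.17e-04), from 165 and 168 to 255, 278 and 267, and 2 of its 3 other probe sets passed in the same direction.

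Of 15 HOX genes and their homeodomain partners, 1 rose and 1 fell, with a median of 0.11. PKNOX1, a partner of the TALE class that binds DNA with HOX and PBX proteins, rose by 1.83 ± 0.11 (adjusted p = 4.12e-06). Its intensity was 62.1 and 79.5 on the DMSO arrays and 253, 241 and 256 with gedunin, and 3 of its 4 other probe sets passed in the same direction (mean of its probe sets, 1.02). It was the sole gene of the context lists called with all 6 arrays as well (2.18, adjusted p = 0.0481). HOXC13, a paralog of HOXB13, fell by 0.46 ± 0.13 (adjusted p = 0.0352), a call lost without gedunin 1 (-0.44), gedunin 2 (-0.36), DMSO 1 (-0.51) or DMSO 2 (-0.42) and after a second quantile normalization (-0.44, adjusted p = 0.0504).

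Of 17 other transcription factors of epithelium or prostate, 4 fell, 1 rose and 12 did not pass, with a median of -0.017, as over all genes. ZBTB16, a zinc finger repressor that androgen raises, fell by 1.33 ± 0.11 (adjusted p = 3.01e-05), from 188 and 150 to 64.3, 68.1 and 67.7. SOX4 fell by 1.08 ± 0.08 (adjusted p = 2.27e-05), from 858 and 884 to 414, 404 and 422. OVOL2, which keeps cells epithelial, fell by 1.04 ± 0.09 (adjusted p = 5.22e-05), from 81.5 and 76.3 to 36.7, 41.0 and 37.5. GRHL2, a grainyhead factor of epithelial junction genes, fell by 1.03 ± 0.10 (adjusted p = 8.98e-05), from 203 and 212 to 110.4, 103 and 92.5. The value of ZBTB16 lay beyond that of GATA2 and the other 3 lay between GATA2 and SPDEF, and for all 4 the gedunin arrays were below both DMSO arrays. In the mean of the probe sets of a gene, OVOL2 had -0.56 and GATA2 -0.69, against -1.03 for GRHL2 and -1.01 for SOX4. NFIB, which binds with FOXA1 at prostate enhancers, rose by 0.37 ± 0.09 (adjusted p = 0.0168). This call was lost without DMSO 1 (0.43) or DMSO 2 (0.31), with centring on GAPDH and ACTB (0.20, adjusted p = 0.161) and in the mean of its probe sets (0.26, adjusted p = 0.0657). KLF5, a factor of basal and luminal progenitors, had 0.11 ± 0.10 (adjusted p = 0.537). It read 24.8 to 29.8 on the 5 arrays, below the array median.

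**Figure D4:**
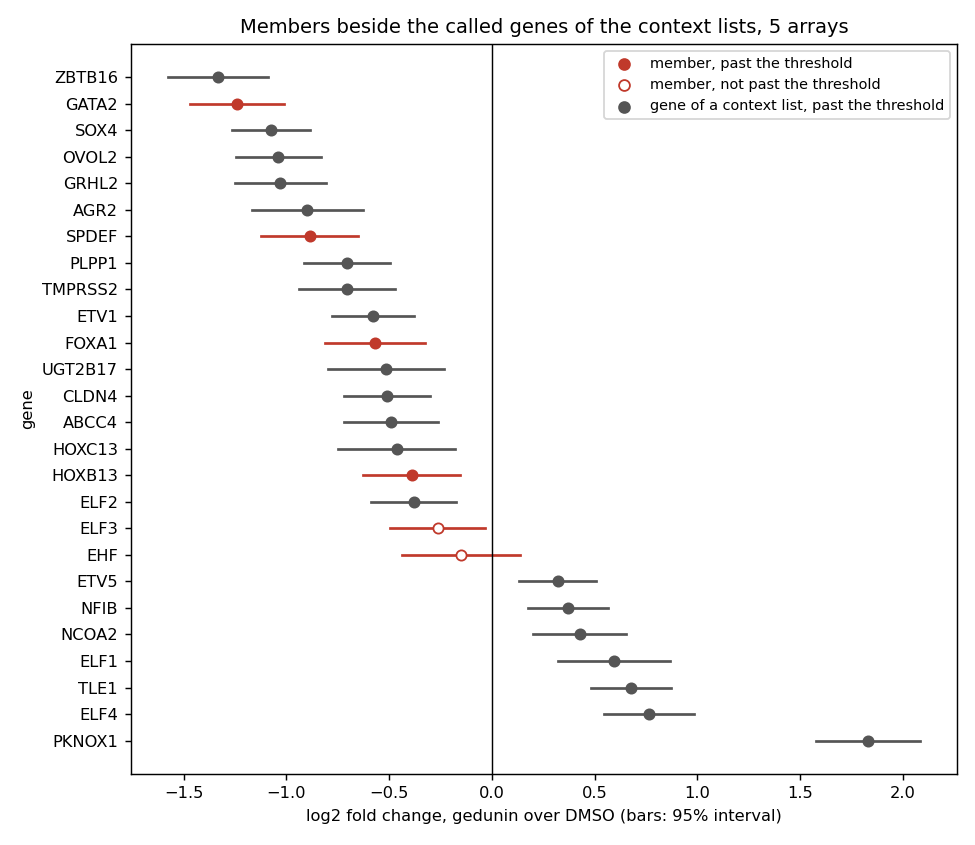
Log2 fold change (gedunin over DMSO, 5 arrays) with 95% intervals of the 6 members in red and the 20 called genes of the context lists in grey; open points did not pass the threshold. By the brightest probe set of each of the 26 genes, GATA2 has the second largest fall, after ZBTB16 (-1.33), and PKNOX1 (1.83) the largest rise; with a gene's probe sets averaged, GATA2 (-0.69) comes after ZBTB16, GRHL2, SOX4, AGR2, PLPP1 and ETV1.

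Of 11 coregulators of androgen signalling, 1 rose and 0 fell. NCOA2 rose by 0.43 ± 0.10 (adjusted p = 0.0188), a call lost without gedunin 1 (0.39), gedunin 2 (0.40) or DMSO 1 (0.33) and with centring on GAPDH and ACTB (0.26, adjusted p = 0.0832). The mean of its probe sets also gave 0.26. Of 12 genes listed as targets with enhancers bound by these factors, 0 rose and 4 fell, with a median of -0.22. Binding was not measured in these data, and whether these values follow those of the members was not tested. TMPRSS2, a serine protease of the luminal surface, went from 185 and 159 to 104, 98.7 and 114, a fall of 0.70 ± 0.10 on the log2 scale (adjusted p = 0.00136). PLPP1, a lipid phosphatase, fell by 0.71 ± 0.09 (adjusted p = 7.55e-04), from 1506 and 1499 to 849.7, 984 and 936. ABCC4 (-0.49) and UGT2B17 (-0.52) also fell, but ABCC4 lost its call without DMSO 2 (-0.35) and UGT2B17 without gedunin 1 (-0.51), gedunin 2 (-0.42), DMSO 1 (-0.43) or DMSO 2 (-0.61). KLK3, which encodes prostate-specific antigen, had -0.14 ± 0.10 (adjusted p = 0.425). Of the called context genes with other probe sets, TMPRSS2, OVOL2, ELF2 and ETV5 had 0 further sets past the threshold in the same direction.

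Of 12 genes linked to SPDEF, EHF or ELF3 in epithelia, 2 fell and 0 rose, with a median of -0.056. AGR2, an ER protein of secretory cells that SPDEF is known to raise, fell by 0.90 ± 0.12 (adjusted p = 8.15e-04), from 58.3 and 51.8 to between 25.5 and 33.5, the gedunin values lying near the array median. CLDN4, a tight junction claudin, fell by 0.51 ± 0.09 (adjusted p = 0.00478), and without DMSO 1 was not called (-0.46). The adhesion genes CDH1 (0.0050 ± 0.085), EPCAM (0.16 ± 0.11) and CLDN7 (0.26 ± 0.09) were not called; they were chosen after their values were seen. Of the 6 luminal markers, 0 were called lower, and the keratins KRT18 (0.47 ± 0.09, adjusted p = 0.00590) and KRT8 (0.34 ± 0.10, adjusted p = 0.0450) were called higher. The remaining markers had negative values and were not called: KLK3 (-0.14), KLK2 (-0.23), FOLH1 (-0.26, adjusted p = 0.0673) and ACP3 (-0.31, adjusted p = 0.0527). For FOLH1 and ACP3 all gedunin arrays lay below both DMSO arrays. KRT18 lost its call without DMSO 1 (0.46) or DMSO 2 (0.47). KRT8 lost its call without gedunin 1 (0.28), gedunin 2 (0.33), DMSO 1 (0.30) or DMSO 2 (0.37), when arrays were centred on GAPDH and ACTB (0.17, adjusted p = 0.228), in the mean of its probe sets (0.17, adjusted p = 0.306) and after a second quantile normalization (0.30, adjusted p = 0.0701).

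For each called member, the 3 genes with the most similar profile were found by the root mean square difference of log2 values over the 5 arrays, each centred on the mean of DMSO 1 and 2. Nearest to GATA2 were RRM2, a ribonucleotide reductase subunit (0.052), ZNF652 (0.074) and the SMN complex gene GEMIN4 (0.075). FOXA1 lay nearest to AKAP11 (0.035), C2CD5 (0.036) and SYNJ2BP (0.050). HOXB13 lay nearest to HAUS3 (0.028), the insulator protein gene CTCF (0.029) and GINS1 (0.030). SPDEF lay nearest to the replication kinase gene CDC7 (0.056), the PI3-kinase gene PIK3CB (0.070) and GALNT11 (0.081). The measure covers 5 arrays of 2 conditions and says nothing of shared function. On the array labelled DMSO 3, not used for this, RRM2 read 3379 against 950.5 and 1086 on DMSO 1 and 2 while GATA2 read 19.4, so the profiles parted there.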

How the data were processed

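The deposited intensities of 22215 probe sets on 6 arrays were made by the authors with RMA (background correction, quantile normalization and probe set summary), per the submitters' processing notes; which arrays were processed together is not given in the sources used here. Values were linear (11.0 to 18735), so log2 was taken. An annotation of the platform named 1 gene for 19724 probe sets, several for 568 and none for 1923. Gedunin (3 arrays) was compared with DMSO 1 and 2 by limma 3.58.1 in R 4.3.3 (lmFit, eBayes), with p-values adjusted by Benjamini-Hochberg over all probe sets and a threshold of 0.05. Where a gene had several probe sets, the brightest by its mean over the 6 arrays stood for it. The code was tested on simulated data. The members, lists and motifs were chosen with earlier results of these data known. Genes named are the 6 members, up to 6 called genes of each list, a few fixed ones and the 3 closest profiles of each called member, with exceptions stated. The table has no detection calls, and precision is limited by having 3 and 2 arrays.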

Additional observations from a re-analysis of the deposited data

Results flagged for a closer look

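Some relatives of the members carried signal on the array labelled DMSO 3, which the comparison does not use, at least 4-fold above the mean of DMSO 1 and 2. SPIB, an ETS factor of B cells, was higher there by 4.06 on the log2 scale (378 against 22.2 and 23.3). ELF4 was higher by 3.29 (245 against 23.4 and 26.9), FLI1, an ETS factor of blood and endothelium, by 2.85 (166 against 25.1 and 21.0) and ETV6 by 2.32 (140.2 against 30.7 and 25.7). GATA3, a factor of T cells and luminal breast cells, was higher by 2.26 (88.9 against 18.3 and 18.8). None of the 6 members showed this.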

How the results depend on the processing

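With all 6 arrays the values of the 6 members reversed, to 0.24 (GATA2), 0.49 (FOXA1), 1.39 (HOXB13), 0.065 (SPDEF), 1.03 (EHF) and 0.25 (ELF3), as did GATA2 210358_x_at (0.028), CLDN4 (0.092), ELF4 (-0.33), ETV1 (0.46), ETV5 (-0.13), GRHL2 (0.10), HOXC13 (0.019), PLPP1 (0.97) and TMPRSS2 (0.24). Calls there numbered 0 of 13 member probe sets, 312 of all probe sets and 1 context gene. Centring on GAPDH and ACTB moved the median of all probe sets to -0.18 and called 6267, of which 5226 were lower and 1041 higher, against 1758 and 1638 of 3396 as designed. The 4 member calls held, ELF3 passed (-0.43, adjusted p = 0.0145), and the near-floor sets ELF3 201510_at (-0.067) and SPDEF 213442_x_at (-0.087) changed sign. A threshold of 0.01 left 1869 probe sets and ended the call of HOXB13 (-0.39, adjusted p = 0.0319). Without probe sets ending in _x_at or _s_at, 3 of 5 member sets, 1586 probe sets in all and 13 context genes were called. Leaving out each of the 5 arrays gave 4 to 6 called member probe sets, 1805 to 3064 called probe sets (1805 without DMSO 1, 1835 without DMSO 2), 12 to 20 context genes (12 without DMSO 1), -0.66 to -0.52 for FOXA1, -0.46 to -0.31 for HOXB13 and -0.054 to 0.26 for ELF3 201510_at. The replicate numbers pair no samples by the labels, and the correlation of deviations was -0.033 for pair 1 and 0.039 for pair 2. With a replicate block, in which gedunin 3 has no partner, HOXB13 was -0.31 (adjusted p = 0.0955) and lost its call, SPDEF 213441_x_at passed (-0.52, adjusted p = 0.0215), and ETV5 (0.31, adjusted p = 0.0847) and NFIB (0.37, adjusted p = 0.0537) lost theirs. The block called 2931 probe sets, 6 member sets and 3 of the 6 members. Over all alternatives, 124 of 148 values of the members' representative sets and of the counts kept direction and side of the threshold (counts within 1.5 times), as did 389 of 467 values of other probe sets and genes. These shares include values that were not called in either fit. Some settings, such as the threshold of 0.01, leave the log2 fold change itself the same, so the shares do not measure stability. The causes of the changes between settings were not tested. Dim probe sets limit what can be seen of 4 member sets.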
